A study of Homo sapiens with 7 samples.

Results

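The hypoxia response and glycolysis genes described here are 45 named genes, 16 glycolytic enzymes and 29 other genes. The others are genes that low oxygen induces or that take part in oxygen sensing. All 45 were taken from a list of symbols and read by every probe of the array that carries one of those names. Of the 45 genes, 38 had at least 1 tested probe, against 11384 named genes with a tested probe in all. They comprised all 16 glycolytic enzymes with 28 probes and 22 of the 29 others with 31 probes. No tested probe carried the name ARNT, EGLN3, CA9, PDK1, SLC2A3, SLC16A3 or INSIG2L, and these 7 genes are not analysed here. PKM2 was read under its current symbol PKM.

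The cells were PC3 TRIPZ-MITFA, a human prostate cancer line transduced with a lentiviral, doxycycline-inducible cassette for HA-Flag-tagged MITFA, the A isoform of the transcription factor MITF. RNA of 4 arrays of doxycycline-treated cells (Dox, replicates 1 to 4) was compared with RNA of 3 arrays of the same cells left untreated (No dox, replicates 2, 3 and 4), and all 7 arrays share the cassette. Replicate 1 of No dox was not analysed here, the dose and duration of doxycycline for the arrays are not given in the sources used here, and cells given doxycycline but lacking the cassette were not among the arrays, so that effects of the drug and of MITFA cannot be told apart. No source says that the arrays came from separate cultures, and each p-value therefore reflects array-to-array spread that may be technical.

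In cells with enough oxygen, prolyl hydroxylases such as EGLN1 mark the HIF alpha subunits HIF1A and EPAS1 for destruction. When oxygen is short these subunits persist, pair with ARNT and bind a short motif, the hypoxia response element, in genes for glucose uptake, glycolysis, pH control, blood vessel growth, collagen processing and mitophagy. Glycolysis splits glucose to pyruvate, which lactate dehydrogenase can turn into lactate, and many cancer lines run it at a high rate. MITF belongs to the basic helix-loop-helix leucine zipper factors, which bind E-boxes, a motif whose letters overlap with those of the hypoxia response element.

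When Dox was compared with No dox, 0 of the 59 member probes passed the adjusted threshold of 0.05 as higher in Dox and 0 as lower (limma, Benjamini-Hochberg over all 19337 tested probes). The values nearest to it belonged to ENO2, ALDOC, BHLHE40 and NDRG1, each 1.20 to 1.31-fold higher in Dox without overlap of the groups. The same test called 0.134% of all tested probes higher and 0% lower. At an unadjusted p under 0.05, 5 member probes were higher, against a background of 4.49% of all probes, and 1 was lower, against 4%. The 4 Dox arrays lay wholly above the 3 No dox arrays at 7 member probes (background 5.07%) and wholly below them at 2 (background 4.24%). On the authors' own log2 values, from which less background had been removed, 3 member probes passed the adjusted threshold as higher (BHLHE40, NDRG1 and ALDOC) and 0 as lower, where 0.393% of all probes were called higher and 0.129% lower. No member probe reached the 1.5-fold change that the methods of the study ask for, and the 95% interval of 6 member probes did not include 0. The study itself first counted differential probes without that cut, and applied it afterwards to pick candidates. Of the 59 probes, 57 were detected on all 7 arrays, and the exceptions were a second probe of HK1 and a second probe of MXI1.

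Each array gave 15562 to 16618 detected probes of 47323, and log2 signals of any 2 arrays correlated at 0.994 to 0.996 across probes. The epithelial markers KRT8, KRT19 and EPCAM and the mesenchymal marker VIM were detected on all 7 arrays, and VIM, the only one of these 4 whose groups did not overlap, had a log2 fold change of 0.17 (adjusted p = 0.565), whose part in the results below was not tested. No tested probe was named for the prostate genes KLK2, KLK3 or TMPRSS2, nor for the leukocyte markers PTPRC and CD3E. Of the markers of other cell types with a tested probe, PECAM1 (endothelial) was detected on all 7 arrays with a log2 fold change of -0.20, COL1A2 (fibroblast) on 3 of 4 Dox and 2 of 3 No dox arrays with 0.13, and LYZ (leukocyte) and COL1A1 (fibroblast) on 0 Dox arrays and 1 No dox array each. The groups overlapped at all 4, and their part in the results was not tested. MITF itself had log2 signals of 6.70, 6.94, 6.74 and 6.67 on the Dox arrays, against 6.88, 6.88 and 6.69 on the No dox arrays, so that the groups overlapped (log2 fold change -0.06, 95% interval -0.26 to 0.14, adjusted p = 0.901 from limma). Whether that probe lies in the part of the transcript that the cassette carries was not tested, so the probe does not check the labels.

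RefSeq promoter windows from 250 bases before to 50 bases after the start (GRCh38.p14) were given for 35 of the 38 genes, 62 windows in all. No window was given for NDRG1, BNIP3L or VEGFA. The core of the hypoxia response element was searched on both strands in its versions ACGTG, found in 43.5% of the member windows and in 21.4% of 35116 windows of all genes, and GCGTG, found in 48.4% of the member windows and in 36.5% of all windows. Either version was found in 72.6% of the member windows (61.1% of those of glycolytic enzymes and 88.5% of those of the other genes) and in 48.4% of all windows. These are shares of windows, 36 of 16 enzymes and 26 of 19 other genes, and windows of 1 gene can overlap. HK1, PFKM and PFKP each entered with several windows, some with and some without a match, so the shares of the lists do not compare genes. The members were listed as genes of the hypoxia response, so the share of 72.6% is no independent property of them. The E-box CACGTG, which contains ACGTG, was found in 14.5% of the member windows and in 7.26% of all windows. Windows of 4 genes are printed, in lower case with each match to these 3 motifs on either strand in capitals, because BHLHE40, ALDOC and ENO2 are 3 of the 4 genes whose brightest probe had an unadjusted p under 0.05, and LDHA is an enzyme of the same pathway whose 3 probes lay close to no difference.
BHLHE40, chr3:4979187-4979486 (+ strand): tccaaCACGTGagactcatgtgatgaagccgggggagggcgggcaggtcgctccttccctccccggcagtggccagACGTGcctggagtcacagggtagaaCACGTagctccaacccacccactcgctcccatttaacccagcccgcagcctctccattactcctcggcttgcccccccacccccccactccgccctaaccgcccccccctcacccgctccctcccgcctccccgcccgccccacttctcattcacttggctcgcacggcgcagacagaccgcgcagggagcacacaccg
ALDOC, chr17:28576846-28577145 (- strand): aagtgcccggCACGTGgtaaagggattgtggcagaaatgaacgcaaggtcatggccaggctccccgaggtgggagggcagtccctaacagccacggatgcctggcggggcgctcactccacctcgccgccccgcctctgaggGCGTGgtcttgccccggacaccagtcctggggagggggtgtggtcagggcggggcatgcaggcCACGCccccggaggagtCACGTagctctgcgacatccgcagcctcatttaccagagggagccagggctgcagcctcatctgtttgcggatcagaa
ENO2, chr12:6914330-6914629 (+ strand): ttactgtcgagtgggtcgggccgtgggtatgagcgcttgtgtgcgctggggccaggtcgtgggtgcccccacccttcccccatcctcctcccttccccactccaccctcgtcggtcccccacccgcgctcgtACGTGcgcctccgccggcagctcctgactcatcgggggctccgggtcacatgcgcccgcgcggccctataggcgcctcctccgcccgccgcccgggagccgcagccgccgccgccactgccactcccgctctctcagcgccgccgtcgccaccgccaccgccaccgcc
LDHA, chr11:18394313-18394612 (+ strand): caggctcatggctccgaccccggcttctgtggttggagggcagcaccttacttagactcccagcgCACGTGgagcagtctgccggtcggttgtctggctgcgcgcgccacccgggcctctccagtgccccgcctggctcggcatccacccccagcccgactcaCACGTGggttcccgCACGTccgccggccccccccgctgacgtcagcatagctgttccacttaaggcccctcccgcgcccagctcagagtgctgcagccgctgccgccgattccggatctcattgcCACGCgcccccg
The printed window of LDHA holds 4 stretches in capitals, 2 of them a full E-box. That of BHLHE40 holds 3 stretches with 1 E-box, that of ALDOC 4 stretches with 1 E-box, and that of ENO2 a single ACGTG and 0 E-boxes. A further LDHA window, chr11:18396101-18396400, is not printed and holds 1 stretch and 0 E-boxes. A match is a description of letters and not a bound site.

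Of the genes with a part in oxygen sensing, none passed the test. HIF1A, the oxygen-regulated subunit of HIF-1, had log2 signals of 8.89, 8.76, 8.95 and 8.92 on the Dox arrays, against 8.72, 8.83 and 8.86 on the No dox arrays, at its brightest probe. The groups overlapped there (log2 fold change 0.07, 95% interval -0.10 to 0.25, adjusted p = 0.831 from limma). A further HIF1A probe (ILMN_1681283) had 7.34, 7.22, 7.24 and 7.16 on the Dox arrays, against 7.51, 7.36 and 7.39 on the No dox arrays. All 4 Dox arrays lay below all 3 No dox arrays at that probe (log2 fold change -0.18, 95% interval -0.35 to -0.01), a difference that did not pass adjustment (adjusted p = 0.566), and the other HIF1A probe (ILMN_2379788) had a log2 fold change of -0.05 with overlapping groups, from 7.53, 7.75, 7.97 and 7.67 on the Dox arrays against 7.87, 7.86 and 7.62 on the No dox arrays. The values of the HIF1A probes thus had both signs, and the difference in the Dox effect between ILMN_1681283 and the brightest probe was -0.26 (exact permutation test over the 7 arrays, two-sided, p = 0.0286, the smallest the design allows, adjusted p = 0.200 over 21 such probe pairs).

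EPAS1, the HIF alpha subunit known as HIF-2 alpha, had 7.97, 8.11, 7.97 and 7.78 on the Dox arrays, against 8.14, 7.97 and 8.17 on the No dox arrays. Its groups overlapped, and its log2 fold change of -0.14 (95% interval -0.35 to 0.07, adjusted p = 0.719) was the lowest among the brightest probes of the 38 genes. EGLN1, the prolyl hydroxylase that marks HIF alpha, had a log2 fold change of 0.07 (adjusted p = 0.839).

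BHLHE40, a basic helix-loop-helix repressor induced by HIF, stood apart between the groups with little spread within them. Its log2 signals were 10.61, 10.53, 10.57 and 10.62 on the Dox arrays, against 10.33, 10.30 and 10.33 on the No dox arrays. Every Dox array stood above every No dox array, and the mean was 10.58 ± 0.04 in Dox and 10.32 ± 0.02 in No dox (SD, n = 4 and 3). The log2 fold change was 0.26 (1.20-fold, 95% interval 0.12 to 0.41) with an adjusted p of 0.311 from limma, and 0.25 with an adjusted p of 0.0133 on the authors' values. The printed BHLHE40 window carries 1 E-box in its first bases and 2 further ACGTG cores.

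NDRG1, a cytoplasmic stress-response protein and a classical hypoxia marker, had the largest log2 fold change of the 59 probes. It had 10.23, 10.41, 10.53 and 10.40 on the Dox arrays, against 10.13, 10.07 and 9.80 on the No dox arrays. The groups did not overlap, but the No dox arrays were spread, with replicate 4 the lowest, and Dox replicate 1 was only a little above the highest No dox array. The log2 fold change was 0.39 (1.31-fold, 95% interval 0.17 to 0.62) with an adjusted p of 0.323, and 0.37 with an adjusted p of 0.0142 on the authors' values.

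The calls of BHLHE40, NDRG1 and ALDOC on the authors' values were not kept in every fit with 1 array left out. Such fits also have fewer arrays, so a miss does not single out the array that was removed. BHLHE40 passed without No dox replicate 2 (adjusted p = 0.0281), without No dox replicate 4 (0.0359), without Dox replicate 2 (0.0244) and without Dox replicate 3 (0.0384), and missed without No dox replicate 3 (0.0684), Dox replicate 1 (0.0504) or Dox replicate 4 (0.0539). NDRG1 passed without No dox replicate 2 (0.00594), No dox replicate 3 (0.0409) or Dox replicate 1 (0.012), and missed without No dox replicate 4 (0.0736), Dox replicate 2 (0.0551), Dox replicate 3 (0.0594) or Dox replicate 4 (0.0539). ALDOC passed without No dox replicate 2 (0.0386) and missed without each of the others (0.0637 to 0.111). The size of the difference kept its sign each time, at 0.24 to 0.27 for BHLHE40, 0.28 to 0.43 for NDRG1 and 0.19 to 0.24 for ALDOC on the log2 scale.

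**Figure D1:**
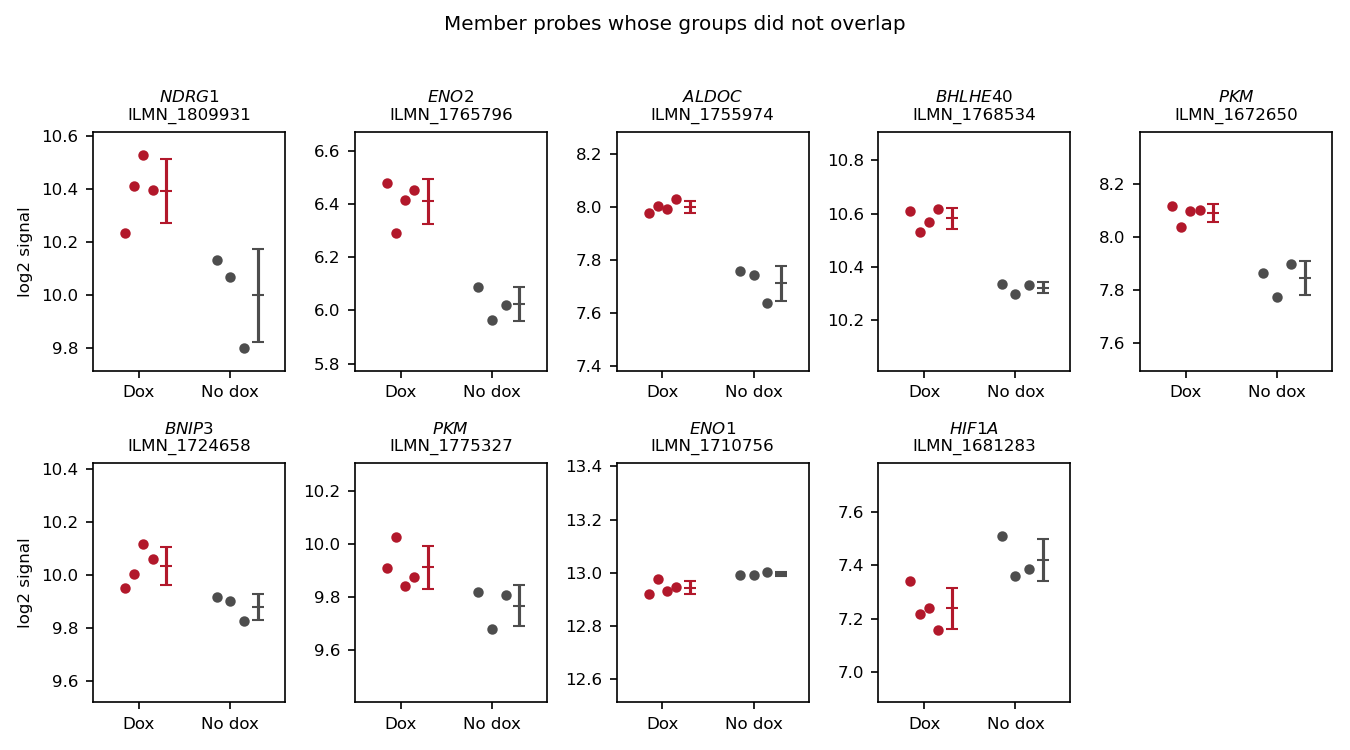
Log2 signal on each array at the 9 member probes whose groups did not overlap, with Dox (red, 4 arrays) left of No dox (grey, 3 arrays). Bars give the mean and SD, every panel spans the same log2 range, and the Dox arrays lie above the No dox arrays at 7 probes and below them at 2, ENO1 and HIF1A ILMN_1681283.

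The remaining genes outside glycolysis had small values, positive except at PLOD1 and KDM3A (brightest probes), and none passed the test. BNIP3, a mitophagy receptor of the outer mitochondrial membrane, had 9.95, 10.00, 10.11 and 10.06 on the Dox arrays, against 9.92, 9.90 and 9.82 on the No dox arrays. All Dox arrays lay above the No dox arrays, by a narrow margin at Dox replicate 1 (log2 fold change 0.15, 95% interval -0.01 to 0.31, adjusted p = 0.605). Its relative BNIP3L, also a mitophagy receptor, had a similar value of 0.16 at its brightest probe (adjusted p = 0.627) and 0.05 at the other.

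SLC2A1, the glucose transporter GLUT1, had 7.77, 7.85, 7.61 and 7.76 on the Dox arrays, against 7.30, 7.79 and 7.57 on the No dox arrays. The No dox arrays spanned a wider range than the Dox arrays, with replicate 2 the lowest, and the groups overlapped (log2 fold change 0.19, 95% interval -0.06 to 0.44, adjusted p = 0.694). The SLC2A1 value was 0.06 without No dox replicate 2 and 0.31 without No dox replicate 3. VEGFA, the main growth factor for blood vessels, had 5.59, 5.602, 5.34 and 5.46 on the Dox arrays, against 5.38, 5.35 and 5.34 on the No dox arrays. Dox replicates 1, 2 and 4 were above all No dox arrays and Dox replicate 3 was not (log2 fold change 0.14, 95% interval -0.04 to 0.32, adjusted p = 0.678). With raw signals of 106 to 116, VEGFA was among the dimmer members, and its value was 0.06 on the authors' values. The other secreted peptide, ADM, a vasodilator, had 0.07 (adjusted p = 0.884).

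Of the enzymes that set the flux through glycolysis by making fructose 2,6-bisphosphate, PFKFB4 had a log2 fold change of 0.21 (95% interval -0.01 to 0.43, adjusted p = 0.610) and PFKFB3 0.11 at its brightest probe (adjusted p = 0.720). LOX, which cross-links collagen outside the cell, had 0.23 (95% interval -0.01 to 0.46, adjusted p = 0.605). Its raw signals were also low, 112 to 127, and its value was 0.10 on the authors' values. The prolyl 4-hydroxylase subunits P4HA1 and P4HA2 had 0.09 and 0.06 at their brightest probes, and the lysyl hydroxylases PLOD1 and PLOD2 had -0.04 and 0.07. At PLOD2 the 2 other probes had negative values, -0.11 and -0.15, so the sign depended on the probe. DDIT4, an inhibitor of mTORC1 signalling, had 0.16 (95% interval -0.03 to 0.35, adjusted p = 0.647). ANKRD37, an ankyrin repeat protein, and CA12, a membrane carbonic anhydrase of pH control, each had 0.09. MXI1, an antagonist of MYC, had 0.06 at its brightest probe, and KDM3A, a histone demethylase, had -0.06.

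Within glycolysis the largest values belonged to ALDOC and ENO2, the aldolase and enolase isozymes known best from neural tissue, while ALDOA and ENO1, their counterparts in most tissues, had values near 0 (PKM, at 2 of its 3 probes, also had values over 0.1). ENO2 had 6.48, 6.29, 6.42 and 6.45 on the Dox arrays, against 6.09, 5.96 and 6.02 on the No dox arrays. All Dox arrays stood above all No dox arrays (mean 6.41 ± 0.08 in Dox and 6.02 ± 0.06 in No dox, SD, n = 4 and 3). The log2 fold change was 0.39 (1.31-fold, 95% interval 0.22 to 0.55), with an adjusted p of 0.186 from limma, the lowest among the members, and it was 0.20 on the authors' values (adjusted p = 0.0564). ENO2 thus missed the threshold on both scales. Its raw signals of 126 to 159 lay not far above the median signal of an array, 85.6 to 86.4, and its value was smaller where less background was removed. Its printed window holds a single core and no E-box. Where the variance model followed signal intensity, ENO2 passed (adjusted p = 0.0335), as did ALDOC, BHLHE40 and NDRG1.

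ALDOC had 7.98, 8.0045, 7.99 and 8.03 on the Dox arrays, against 7.76, 7.74 and 7.64 on the No dox arrays. The 4 Dox arrays had an SD of 0.02 and lay above every No dox array. The log2 fold change was 0.29 (1.22-fold, 95% interval 0.14 to 0.44, adjusted p = 0.280), and 0.22 on the authors' values (adjusted p = 0.0289).

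ENO1, the common enolase, had 12.92, 12.98, 12.93 and 12.94 on the Dox arrays, against 12.99, 12.99 and 13.003 on the No dox arrays. All Dox arrays lay below the No dox arrays, by a small amount (log2 fold change -0.05, 95% interval -0.19 to 0.09, adjusted p = 0.862). ALDOA, the common aldolase, had 11.27, 11.30, 11.32 and 11.32 on the Dox arrays, against 11.42, 11.20 and 11.32 on the No dox arrays, and the Dox arrays fell inside the No dox range (log2 fold change -0.01, 95% interval -0.18 to 0.15, adjusted p = 0.981). The difference between the Dox effects of ENO2 and ENO1 was 0.44, with the difference between both probes at -6.53 ± 0.11 in Dox and -6.97 ± 0.06 in No dox (SD, n = 4 and 3), and it was 0.26 on the authors' values. For ALDOC and ALDOA it was 0.30 (0.24 on the authors' values), and for PLOD2 and PLOD1 0.11 (0.10 on the authors' values). In an exact permutation test over the 7 arrays (two-sided, 35 regroupings) each of these 3 pairs reached p = 0.0286, the smallest the design allows, and an adjusted p of 0.105 over the 11 paralog pairs compared. The other 8 pairs had adjusted p-values from 0.471 to 0.914, among them EPAS1 against HIF1A at -0.21, PFKFB4 against PFKFB3 at 0.10 and BNIP3L against BNIP3 at 0.01. No pair passed the threshold, and the design with 4 and 3 arrays could not have let a single pair of 11 pass on its own.

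**Figure D2:**
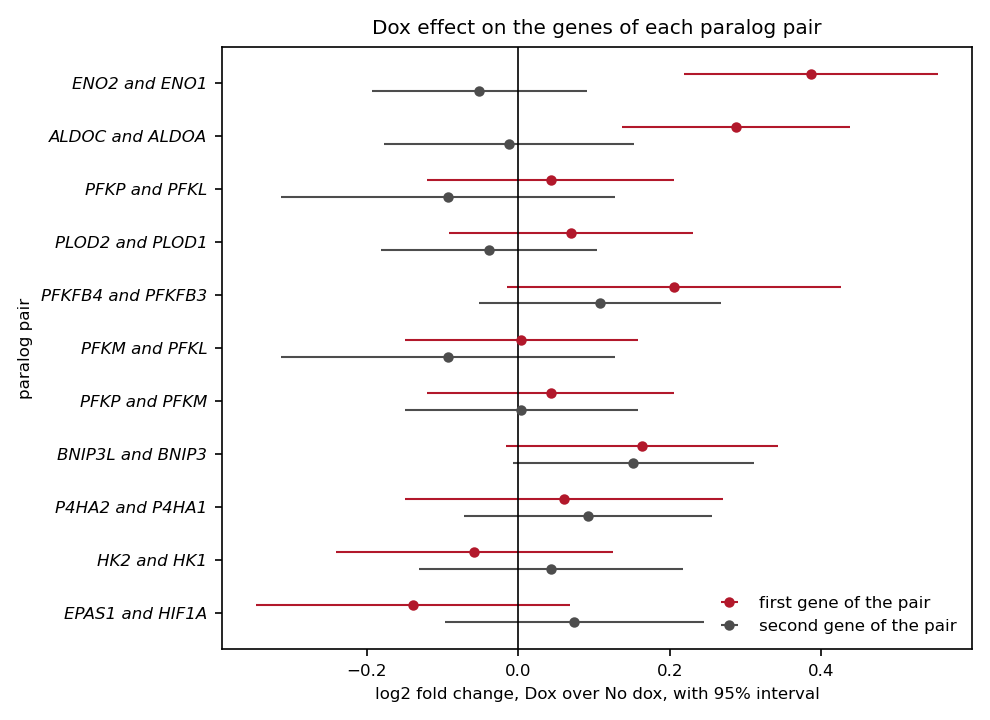
Log2 fold change of Dox over No dox with its 95% interval at the brightest probe of both genes in each of 11 paralog pairs, the first gene in red and the second in grey. ENO2 and ALDOC lie at 0.39 and 0.29 while ENO1 and ALDOA lie at -0.05 and -0.01.

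The pyruvate kinase gene PKM was read by 3 probes with different values. At ILMN_1672650 its log2 signals were 8.12, 8.04, 8.10 and 8.10 on the Dox arrays, against 7.86, 7.78 and 7.90 on the No dox arrays. The groups did not overlap (log2 fold change 0.24, 95% interval 0.09 to 0.39, adjusted p = 0.378, and 0.19 with an adjusted p of 0.0791 on the authors' values). At ILMN_1775327 they were 9.91, 10.03, 9.84 and 9.87 on the Dox arrays, against 9.82, 9.68 and 9.81 on the No dox arrays, again without overlap but with Dox replicate 3 close to the highest No dox array (log2 fold change 0.14, 95% interval -0.03 to 0.31, adjusted p = 0.649). The brightest PKM probe had a log2 fold change of 0.02 (95% interval -0.12 to 0.16, adjusted p = 0.962). The Dox effect at ILMN_1672650 was 0.23 above that at the brightest probe (exact permutation test, p = 0.0286, adjusted p = 0.200 over the 21 probe pairs). The platform annotation assigns the 3 probes to different PKM transcripts, and which exons they read was not analysed here.

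The other classical enzymes had values close to 0 of both signs. GAPDH, the dehydrogenase in the middle of the pathway, had 12.12, 12.05, 12.09 and 12.10 on the Dox arrays, against 12.00, 12.01 and 12.14 on the No dox arrays. The groups overlapped because No dox replicate 4 was the highest of the 7 arrays (log2 fold change 0.04, 95% interval -0.12 to 0.20, adjusted p = 0.910), and the 2 further probes had 0.05 and 0.02. PGK1, the first ATP-forming kinase of the pathway, had 11.37, 11.18, 10.99 and 11.44 on the Dox arrays, against 11.30, 11.15 and 11.09 on the No dox arrays. The Dox arrays held both the highest and the lowest values (log2 fold change 0.06, 95% interval -0.18 to 0.31, adjusted p = 0.909).

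LDHA, which turns pyruvate into lactate, had 12.97, 13.11, 12.92 and 13.05 on the Dox arrays, against 13.17, 12.90 and 13.12 on the No dox arrays. All Dox arrays fell inside the No dox range (log2 fold change -0.05, 95% interval -0.25 to 0.14, adjusted p = 0.906). Its other probes had 0.0021 and 0.0063. The printed LDHA window holds 2 E-boxes and 2 further cores. HK2, the inducible hexokinase, had 8.71, 8.74, 8.60 and 8.75 on the Dox arrays, against 8.66, 8.90 and 8.71 on the No dox arrays, with overlapping groups (log2 fold change -0.06, 95% interval -0.24 to 0.12, adjusted p = 0.882). HK1, GPI, the phosphofructokinase subunits PFKL, PFKM and PFKP, TPI1 and PGAM1 had log2 fold changes between -0.09 (PFKL) and 0.08 (GPI) at their brightest probes.

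**Figure D3:**
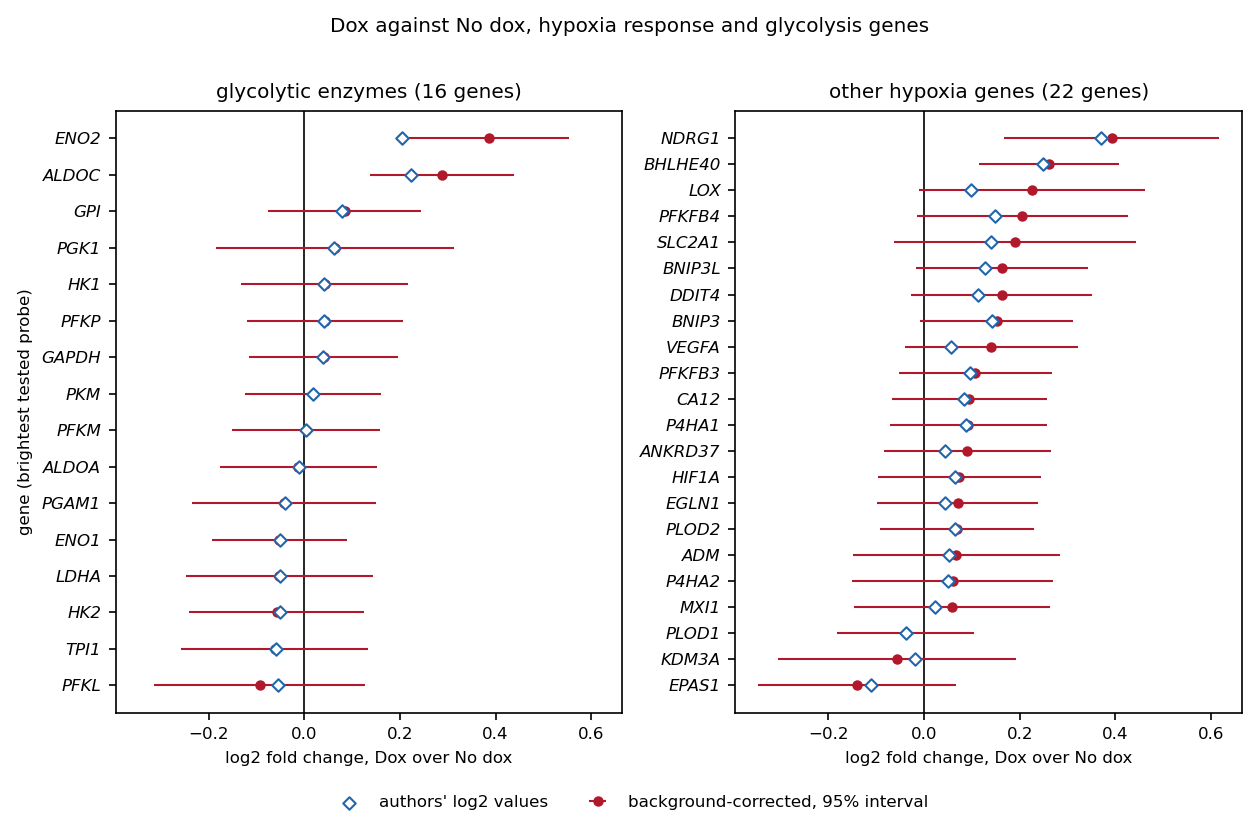
Log2 fold change of Dox over No dox for the brightest probe of each of the 16 glycolytic enzymes and the 22 other genes, with red points and 95% intervals for background-corrected signals and open blue diamonds for the authors' values. Among glycolytic enzymes ENO2 and ALDOC stand at 0.39 and 0.29 with 14 genes within 0.1 of 0, and 19 of the 22 other genes lie above 0.

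Taken by list, the glycolytic enzymes had a median log2 fold change of 0.01 over their brightest probes, with 9 of 16 genes above 0. The other hypoxia genes had a median of 0.09, with 19 of 22 above 0, 10 of them over 0.1 and 1 (EPAS1) under -0.1. Over all 11384 named genes the median was 0.0051 and 51.9% of genes lay above 0, with 2185 over 0.1 and 1970 under -0.1. With the mean over all probes of a gene, the medians were 0.02 for the glycolytic enzymes and 0.08 for the other genes. HIF1A and PLOD2, counted above 0 by their brightest probes, had further probes below 0. On the authors' values the medians were 0.01 for the glycolytic enzymes and 0.07 for the other genes, again with 19 of 22 above 0. None of the 22 genes passed the adjusted test in the background-corrected fit, the genes are not independent of each other, and no test was made over the list.

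**Figure D4:**
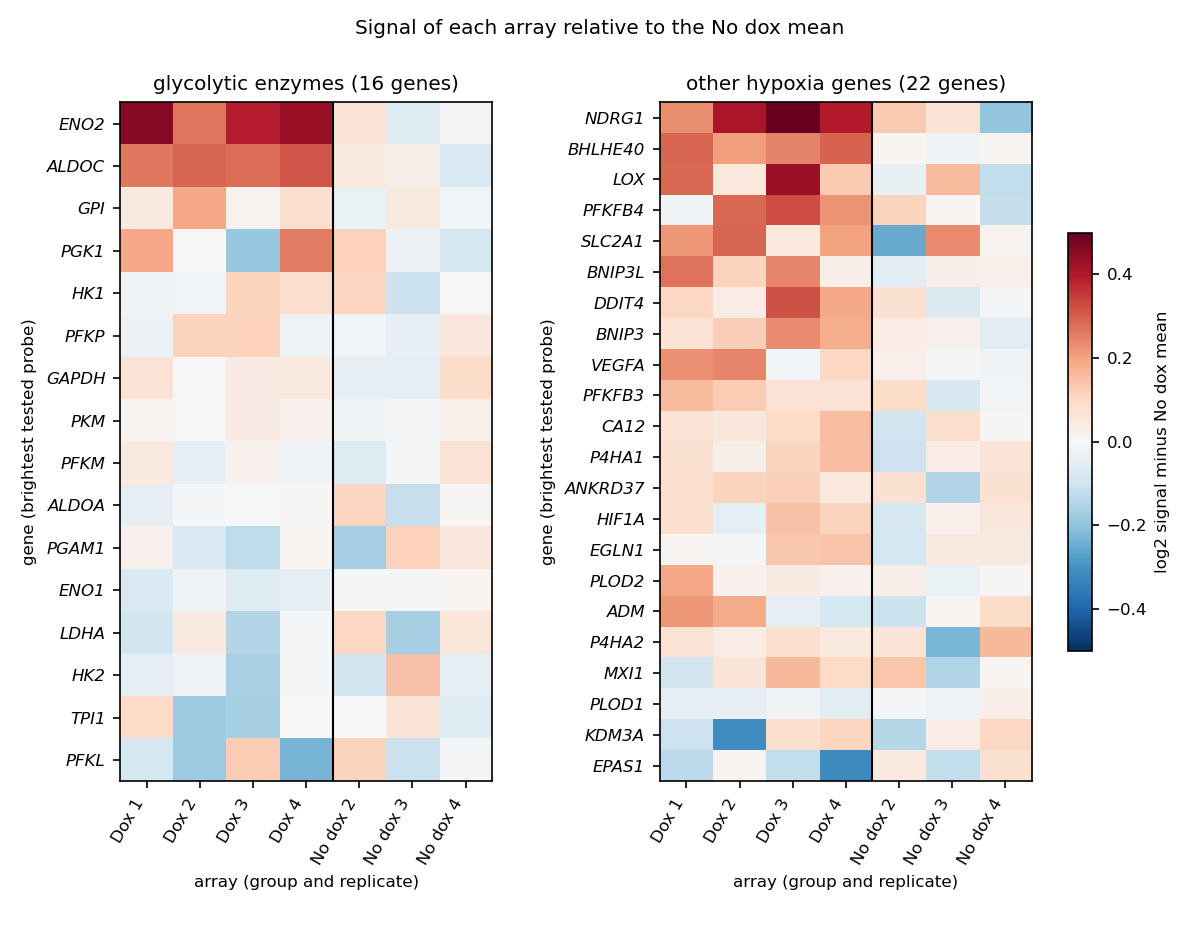
Log2 signal of each of the 7 arrays minus the No dox mean of the same probe, for 16 glycolytic enzymes (left) and 22 other hypoxia genes (right), with Dox arrays left of No dox arrays and genes ordered by log2 fold change. Red is higher and blue is lower, and among the enzymes only the rows of ENO2 and ALDOC are red on all 4 Dox arrays by more than 0.2.

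By array, the median distance of the 22 other genes from their No dox mean was 0.0802, 0.0600, 0.115 and 0.110 on the Dox arrays, against 0.0193, 0.0122 and 0.0151 on the No dox arrays. Every Dox array was above every No dox array, and 17, 18, 18 and 19 of the 22 genes lay above their No dox mean on the 4 Dox arrays, against 12, 12 and 15 on the No dox arrays, so that No dox replicate 4 came within 2 genes of Dox replicate 1. For the 16 glycolytic enzymes the medians were 0.0152, -0.0064, 0.0195 and 0.0069 on the Dox arrays, against -0.0041, -0.0186 and 0.0037 on the No dox arrays, and the groups overlapped. Over all 11384 named genes the medians were 0.0029, 0.0031, 0.0088 and 0.0025 on the Dox arrays, against -0.0027, -0.0021 and 0.0054 on the No dox arrays. Of these genes, 5784, 5795, 5984 and 5765 lay above their No dox mean on the Dox arrays, against 5567, 5583 and 5951 on the No dox arrays. The No dox arrays enter the mean from which they are measured, so their distances are held near 0.

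**Figure D5:**
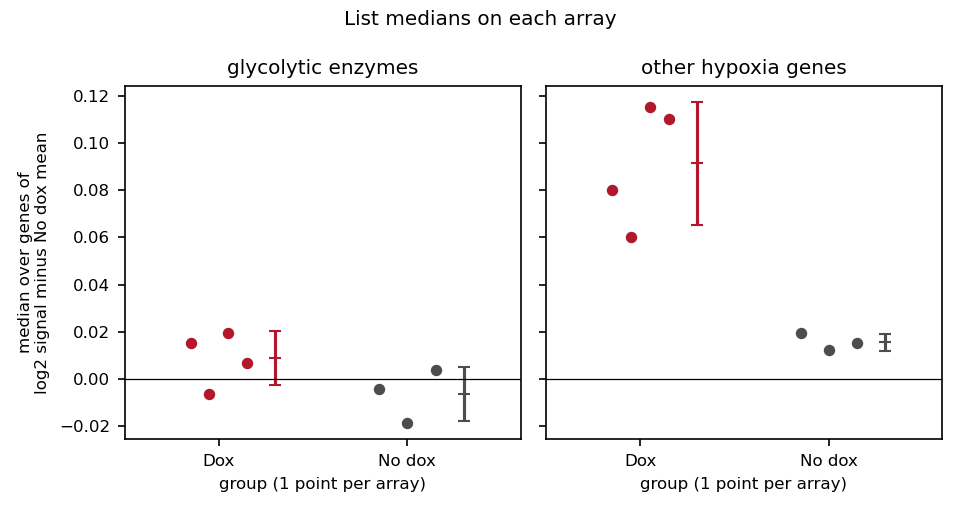
Median over the genes of each list of the log2 signal minus the No dox mean, with 1 point per array, Dox (red) left of No dox (grey), and bars for the mean and SD over arrays. The other hypoxia genes lie at 0.0600 to 0.115 on the Dox arrays and at 0.0122 to 0.0193 on the No dox arrays, while the glycolytic enzymes overlap.

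Further genes of both pathways were read in the same way. Of 42 further genes that low oxygen induces or that regulate HIF, 37 were tested and 0 passed the adjusted test on either scale. Of the 37 genes, 28 lay above 0, and the median log2 fold change was 0.06. At an unadjusted p under 0.05 there were 5 higher and 1 lower, the lower one a regulator of HIF. Of all 11384 named genes, 51.9% lay above 0, 5.02% were higher and 3.46% lower at that p. Of 39 further genes of glycolysis and pyruvate use, 24 were tested and 0 passed in the background-corrected fit, with 10 above 0 and a median of -0.01. On the authors' values 1 of these passed, TXNIP, which limits glucose uptake and binds thioredoxin. TXNIP had 8.999, 8.97, 9.02 and 8.94 on the Dox arrays, against 8.70, 8.70 and 8.56 on the No dox arrays, with no overlap. Its log2 fold change was 0.33 (95% interval 0.17 to 0.48, adjusted p = 0.236), and 0.29 with an adjusted p of 0.006 on the authors' values.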

How the data were processed

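Expression was measured on Illumina Human HT-12 BeadChips in 4 Dox and 3 No dox arrays. The authors deposited, from GenomeStudio, the intensity and detection p-value of 47323 probes, and a matrix of log2 values for 19337 probes. Per the study's methods the log2 values were background-corrected and quantile-normalized with lumi. The deposited log2 values differed by at most 0.046 from quantile-normalized log2 signals without further background correction.

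From the intensities, background was corrected by normexp (negative controls were derived from detection p-values, limma 3.58.1, R 4.3.3, offset 16), followed by log2 and quantile normalization, in place of lumi. The 19337 probes detected on 1 or more arrays (detection p under 0.01) were fitted with limma as 2 group means, moderated by empirical Bayes, with Benjamini-Hochberg adjustment over all of them at 0.05. Gene names came from the platform annotation (15060 tested probes with 1 name, 2 with several and 4275 with none), and 7 symbols were updated through RefSeq. The probe with the highest mean signal stood for a gene.

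The members, lists and alternatives were chosen with earlier results of these data known. Values on every array were given for member probes with an unadjusted p under 0.05, an adjusted p under 0.05 on the authors' values or groups that did not overlap, and for HIF1A, EPAS1, VEGFA, SLC2A1, HK2, ALDOA, GAPDH, PGK1 and LDHA at their brightest probe whatever their values; non-members were named only when they passed the adjusted test on either scale. The fit was tested on simulated data with independent errors, and recovery was required only for changes larger than any seen at the members. Smaller changes were simulated as well, but the share of them that was called is not given here. How often changes of the size seen here would be called is therefore left unstated. The number of arrays limits the precision. The fit was repeated with other background corrections, scalings and filters, on the authors' values, with array weights, with an intensity trend, blocked by replicate number, and after leaving out single arrays. Columns gave no chip identifier.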

Additional observations from a re-analysis of the deposited data

Results flagged for a closer look

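On 2 of the 59 member probes a single Dox array stood apart from the other Dox arrays (its gap to the nearest array, as a ratio to the range of the 4 arrays, exceeded Dixon's 95% critical value, as chance does in about 1 of 20 groups). At P4HA2 probe ILMN_2381697, Dox replicate 3 had a log2 signal of 7.73, against 7.42, 7.45 and 7.44 on the other Dox arrays and 7.50, 7.49 and 7.46 on the No dox arrays, with a ratio of 0.888. At PLOD2 probe ILMN_1771599, Dox replicate 1 had 9.92, against 9.75, 9.78 and 9.75 on the other Dox arrays and 9.76, 9.70 and 9.74 on the No dox arrays, with a ratio of 0.843. The second is the PLOD2 probe used in the comparison of PLOD2 with PLOD1. The rule was not applied to the 3 No dox arrays. At TPI1 probe ILMN_2181191, No dox replicate 2 had 10.75, against 9.68 and 9.68 on the other No dox arrays. The Dox arrays had 9.66, 9.94, 9.99 and 10.49 at that probe.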

How the results depend on the processing

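The count of member genes that passed as higher was 0 in the background-corrected fit. It was 3 on the authors' values and with no background correction (ALDOC, BHLHE40 and NDRG1), 2 with normexp without control probes (BHLHE40 and NDRG1), 4 with an intensity trend and 4 on the authors' values with that trend (ENO2 in addition), and 0 to 3 on the authors' values with 1 array left out, where the trend on the authors' values and the arrays left out of them were chosen after seeing the data. It was 0 under cyclic loess, median scaling, no filter, the stricter filter, array weights, the replicate block and each array left out. No member gene passed as lower under any of these. Over all tested probes, 26 passed as higher and 0 as lower, against 76 and 25 both on the authors' values and with no background correction, 66 and 21 with normexp without controls, and 93 and 39 with an intensity trend. With the replicate block 6 passed as higher, against 18 on the same 6 arrays without it, and with 1 array left out 12 to 18 passed as higher and 0 to 1 as lower. The lower count was 1 under median scaling and 2 with probes detected on every array of a group.

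The median of the glycolytic enzymes was 0.0398 under median scaling and 0.00397 to 0.0255 with 1 array left out, and that of the other hypoxia genes was 0.0996 to 0.125 with 1 array left out. The signs of the fold changes of ALDOC, ENO2, BHLHE40, NDRG1, PKM ILMN_1672650 and HIF1A ILMN_1681283 were kept under all 18 planned settings, while those of ALDOA, LDHA, HK2 and PGK1, among others, changed in 1 or more of them. The numbers of the labels did not pair the arrays (correlations of deviations -0.03, 0.01 and -0.02, and none of the 6 shared-number arrays was closest to its namesake, 0 of 6), and no member gene passed with the block. The cause of these changes was not tested. No BeadChip block was run because no chip identifier was used. A difference under about 0.2 on the log2 scale had an interval that included 0 at every member probe but HIF1A ILMN_1681283.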
